A study of Mus musculus with 12 samples.

Results

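Transcript levels of the genes that make, carry, sense and break down retinoic acid were described in fibroblasts of C57BL/6 mouse embryos (MEFs), which are cultured cells of connective tissue. The genes were Aldh1a1 and Aldh1a2, Cyp26b1, Crabp1 and Crabp2, Rara, Rarb and Rarg, and Stra6, and every probe set annotated to 1 of these 9 genes was taken, whatever its values. The 9 are among 18193 genes that the array reads, and they have 10 of its 45101 probe sets, with 2 for Rarg and 1 for each other gene. The study asked which responses to growth hormone depend on STAT5A and STAT5B, 2 transcription factors switched on by the hormone's receptor.

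The 12 Affymetrix arrays formed 6 groups of 2, which the design text calls biological duplicates. S5 MEFs lack both Stat5 genes and carry a STAT5A vector brought in by a retrovirus, and they were given growth hormone for 120 minutes (S5 + GH) or left untreated (S5). KO MEFs, which lack both Stat5 genes and for which no vector is named, were given the hormone for 120 minutes (KO + GH) or left untreated (KO), and wild-type MEFs likewise (WT + GH and WT). The labels give no vehicle control, no KO group with an empty vector and no statement on how many clones or embryos a genotype stands for, so that genotype and cell preparation cannot be told apart. With 2 arrays a group, the number of arrays limits the precision of every value.

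Retinoic acid is made from retinol, vitamin A. STRA6 takes retinol up from its blood carrier RBP4, dehydrogenases such as RDH10 turn it into retinaldehyde, and the ALDH1A enzymes oxidise that to retinoic acid. The carrier CRABP2 hands retinoic acid to receptors in the nucleus, CRABP1 binds it in the cytoplasm, and enzymes of the CYP26 family break it down. The receptors RARA, RARB and RARG pair with RXR proteins on DNA, and in many embryonic cells retinoic acid induces Rarb, Cyp26 genes and Hox genes.

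Values are the deposited log2 expression values of the probe sets, and differences of 1 are thus 2-fold in the files' own units. Many probe sets form a low mode, in which differences are compressed, so values below 4 were treated as low: a group with both arrays there was set to 4 for folds, which are then written as at least N-fold, and no fold is given between 2 such groups. A probe set was called changed at a Benjamini-Hochberg adjusted p under 0.05 in limma over 45037 probe sets. Of the 10 probe sets, 7 rose above the low mode in at least 1 group, 1 for each of Cyp26b1, Crabp1, Crabp2, Aldh1a1, Aldh1a2, Rarb and Rarg, against 49.8% of all probe sets tested.

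The array medians lay between 2.86 and 3.02, and duplicates correlated across 20566 probe sets with r between 0.989 and 0.995 (probe sets are not independent replicates). In untreated cells the Stat5a probe set 1421469_a_at averaged 2.41 in S5 and 2.44 in KO MEFs, against 11.48 in WT MEFs, while Stat5a probe set 1450259_a_at averaged 9.88 in S5 and 2.23 in KO MEFs, against 2.24 in WT MEFs. Stat5b probe set 1422103_a_at averaged 1.96 in S5 and 1.98 in KO MEFs, against 9.01 in WT MEFs. The 10 fibroblast markers averaged 10.87 to 11.38 on the S5 arrays and 12.66 to 12.75 on the KO arrays, against 13.05 to 13.19 on the WT arrays, and Thy1, one of them, lay between 2.20 and 5.09 on the S5 arrays, against 14.07 or more on all others. Vim, Fn1, Col1a1, Col1a2 and Col3a1 lay between 14.31 and 14.96 on all 12 arrays. The S5 arrays thus stood apart on a defining marker of the labelled cell type, and KO and WT comparisons were also fitted without them. The 14 macrophage and blood markers averaged 3.18 to 3.46 on the S5 arrays and 3.97 to 4.31 on the KO arrays, against 9.13 to 10.76 on the WT arrays. On both arrays of the group, 11 of these 14 were below 4 in untreated S5 MEFs and 8 in untreated KO MEFs, against 1 in untreated WT MEFs. The Gapdh control probe set at the 3′ end minus that at the 5′ end, a sign of RNA length, gave 1.52 ± 0.08 on the S5 arrays and 1.04 ± 0.08 on the KO arrays, against 1.02 ± 0.15 on the WT arrays (SD, n = 4 each). For Actb the same difference overlapped, with 3.04 to 3.15 on the S5 arrays and 2.71 to 3.07 on the KO arrays, against 2.55 to 3.13 on the WT arrays.

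**Figure D1:**
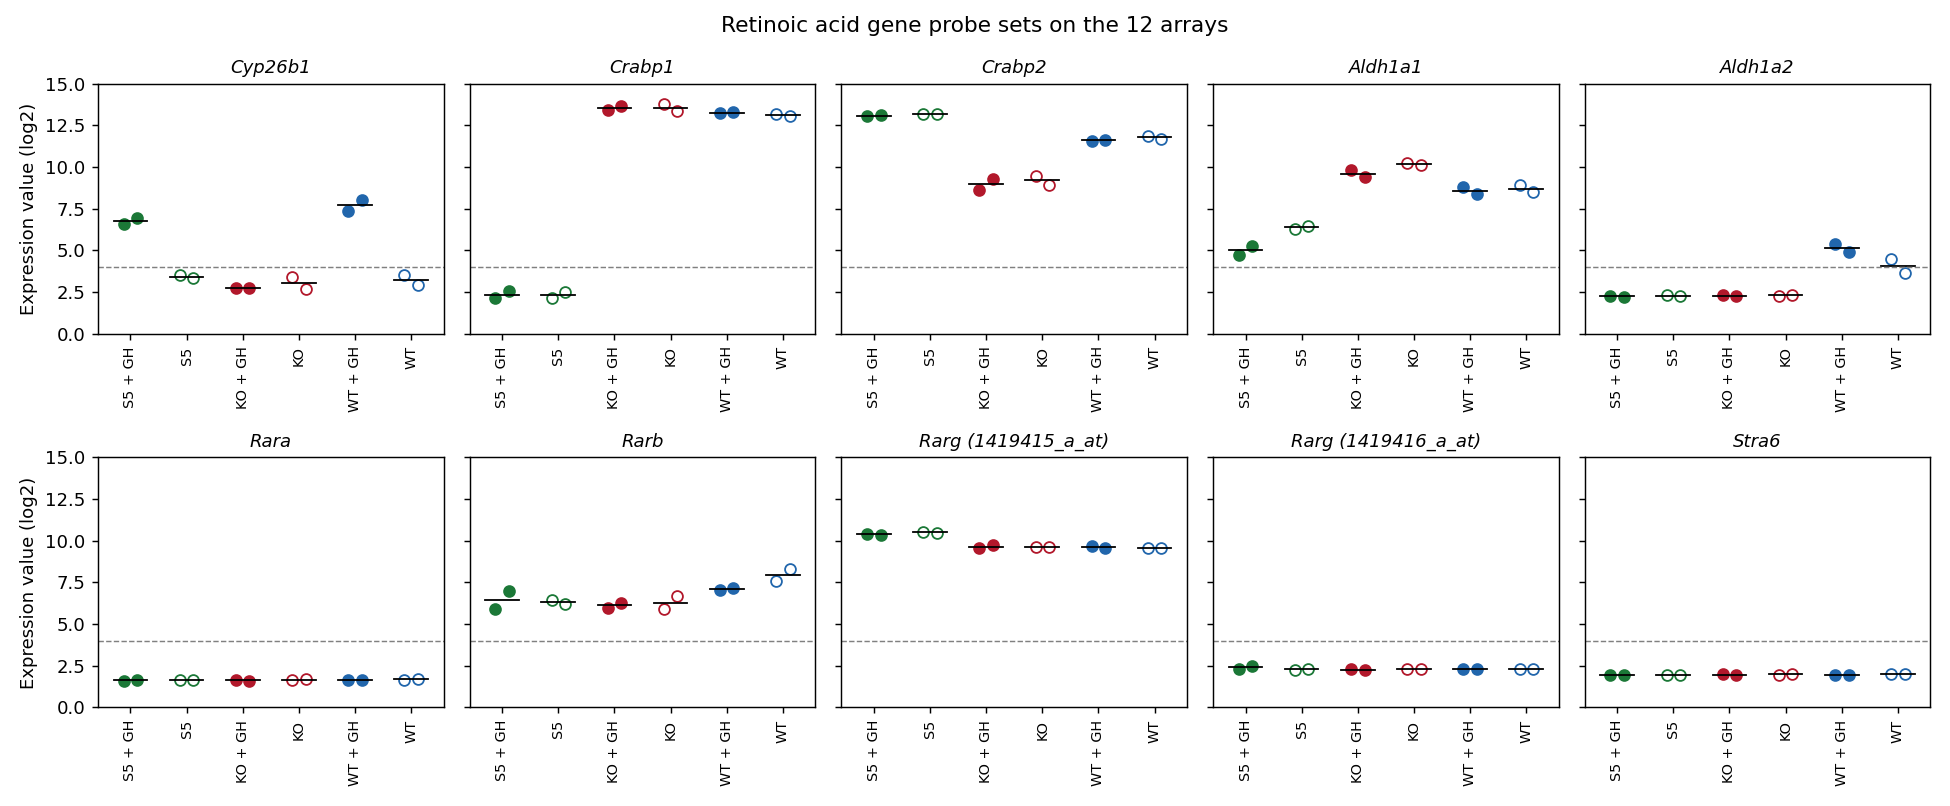
Deposited log2 expression value (vertical axis) of the 10 probe sets in the 6 groups (horizontal axis). Each point is 1 array, filled with growth hormone and open without, each bar is the mean of a group's 2 arrays, and the dashed line is the low mode bound of 4. Crabp1 lies at 2.14 to 2.54 on the S5 arrays and at 13.05 or more on all others, and Cyp26b1 is above the line on the S5 + GH and WT + GH arrays alone.

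Growth hormone raised Cyp26b1 in S5 and in WT MEFs and lowered Aldh1a1 in S5 MEFs, and no other member passed the test of the hormone in any genotype. Among the 10 probe sets, 2 were called in S5 MEFs, against 6.24% of all probe sets tested (3.42% up, 2.83% down). In KO MEFs 0 of 10 were called by limma, against 0.251% of all probe sets. At an unadjusted limma p under 0.05 there were also 0 of 10, for which the share over all probe sets was not computed. In WT MEFs 1 of 10 was called, against 3.06% of all probe sets (1.79% up, 1.27% down). As a check of the treatment, Cish, a feedback inhibitor induced by STAT5, rose at least 38.1-fold in S5 MEFs and 8.8-fold in WT MEFs (limma adjusted p = 7.12e-06 and 0.000128), and its log2 difference in KO MEFs was -0.37 (adjusted p = 0.65).

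Responses were then compared between genotypes. For S5 minus KO, 1 of the 10 probe sets passed, against 1.05% of all, and for WT minus KO 1 of 10, against 0.626% of all. Both were Cyp26b1, and both differences use the same KO arrays. The S5 response minus the WT response passed for 0 of 10 in limma, against 2.12% of all. At an unadjusted limma p under 0.05 there were 3 of 10, for which the share over all probe sets was not computed.

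**Figure D2:**
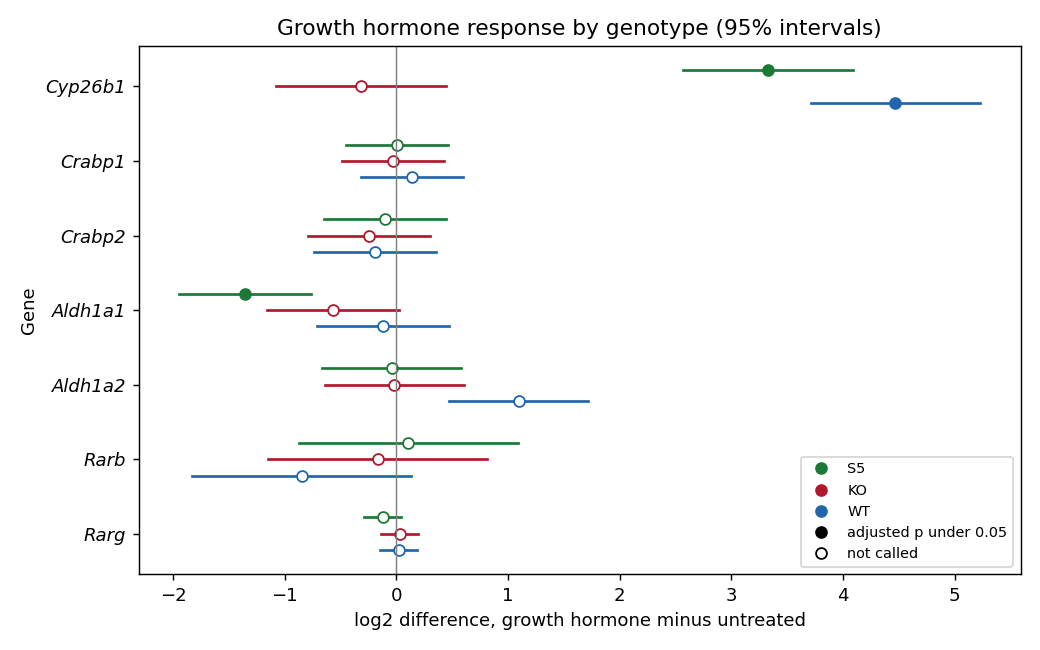
Log2 difference between growth hormone and untreated arrays (horizontal axis) for the 7 probe sets that rose above the low mode (vertical axis), in S5, KO and WT MEFs (2 arrays a group). Points are limma estimates, lines their 95% intervals before adjustment, and filled points have an adjusted p under 0.05. The S5 and WT points of Cyp26b1 lie at 3.33 and 4.47, away from its KO point at -0.31.

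Cyp26b1, the enzyme that oxidises retinoic acid to inactive products, was the member with the largest response to the hormone. In S5 MEFs its probe set 1460011_at read 6.56 and 6.94 with growth hormone, against 3.51 and 3.34 without. KO MEFs read 2.72 and 2.75 with the hormone, against 3.39 and 2.70 without. WT MEFs read 7.37 and 8.01 with the hormone, against 3.54 and 2.90 without. The S5 + GH and WT + GH arrays thus stood above the low mode and the other arrays inside it, with no overlap.

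Cyp26b1 rose at least 6.75-fold with the hormone in S5 MEFs (log2 difference 3.33, SE 0.32, limma adjusted p = 0.00224) and at least 12.9-fold in WT MEFs (4.47, SE 0.32, adjusted p = 0.000744). In KO MEFs the log2 difference was -0.31, with a 95% interval from -1.07 to 0.45 (adjusted p = 0.942). The S5 response exceeded the KO response by 3.64 on the log2 scale (SE 0.46, adjusted p = 0.0175; 2.75 with low values set to 4). The WT response exceeded the KO response by 4.78 (SE 0.46, adjusted p = 0.00696; 3.69 with low values set to 4). The S5 response was smaller than the WT response by an amount that did not pass (log2 difference -1.14, 95% interval -2.22 to -0.07, adjusted p = 0.386).

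The genotypes differed in Cyp26b1 with the hormone. Treated S5 MEFs were at least 6.75-fold above treated KO MEFs (adjusted p = 0.000126), and treated KO MEFs at least 12.9-fold below treated WT MEFs (adjusted p = 7.06e-05). Treated S5 MEFs stood 0.94 below treated WT MEFs (95% interval -1.70 to -0.18, adjusted p = 0.0746). None of the untreated genotype differences in Cyp26b1 passed, and all untreated arrays were below 4. The WT calls depend on the arrays that share the fit: with the WT arrays alone the adjusted p was 0.0714 at the same difference, and the WT response minus the KO response had 0.0538 without the S5 groups. The S5 response minus the KO response had 0.0553 without replicate 2 of untreated S5 and 0.0504 without replicate 2 of treated KO.

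The WT MEFs in which Cyp26b1 rose read high on the macrophage and blood markers. The S5 MEFs, in which Cyp26b1 rose too, had 11 of those 14 markers in the low mode. The part of such cells in the Cyp26b1 response was not tested. In bulk RNA, fewer cells of a type and less RNA per cell cannot be told apart, for Cyp26b1 as for every gene below.

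The window around the start of Cyp26b1 is shown because this gene responded to the hormone. It runs from 250 bases before to 50 after the start in the RefSeq table (GRCm38.p6, chr6:84593761-84594060, minus strand), and it held neither TTCNNNGAA, the core sequence that STAT5 binds, nor a retinoic acid response element of the kinds searched, so no base is in capitals. The elements searched were AGGTCA or AGTTCA or GGGTCA or GGTTCA followed by one of these after 5 bases (DR5) or 2 bases (DR2), on both strands. Of 32851 windows of this length in the table, TTCNNNGAA was in 8.3%, DR5 in 0.0974% and DR2 in 0.268%. No match says only that these letters are not in this window.
Cyp26b1: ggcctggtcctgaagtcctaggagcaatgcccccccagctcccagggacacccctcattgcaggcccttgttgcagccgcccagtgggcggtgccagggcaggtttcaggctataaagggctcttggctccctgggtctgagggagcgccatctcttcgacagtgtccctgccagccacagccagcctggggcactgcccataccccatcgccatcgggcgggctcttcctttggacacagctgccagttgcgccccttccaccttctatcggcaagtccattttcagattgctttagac

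Between genotypes, the members moved in both directions. For each of the 7 probe sets above the low mode, the largest log2 difference between genotypes exceeded in size the largest with the hormone, before low values were set to 4. For Cyp26b1 the 2 were close, at -4.96 for KO minus WT with growth hormone and 4.47 for the hormone in WT MEFs. With low values set to 4 they were equal in size, at -3.69 and 3.69, so this gene has no such ranking. In the untreated MEFs, 4 of the 10 probe sets differed between S5 and KO (2 higher and 2 lower in S5), against 18.8% of all probe sets tested (10.5% higher, 8.37% lower). Between S5 and WT MEFs 6 differed (2 higher, 4 lower in S5), against 24.0% (13.9% higher, 10.2% lower). Between KO and WT MEFs 4 differed (1 higher, 3 lower in KO), against 17.2% (9.38% higher, 7.85% lower). With growth hormone the counts were 5 for S5 against KO (3 higher, 2 lower), where 21.8% of all were called (11.5% higher, 10.3% lower). They were 5 for S5 against WT (2 higher, 3 lower), where 27.6% were called (15.8% higher, 11.8% lower), and 4 for KO against WT (1 higher, 3 lower), where 19.4% were called (10.8% higher, 8.59% lower). Each group enters 2 of these comparisons, so they are not independent of each other.

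**Figure D3:**
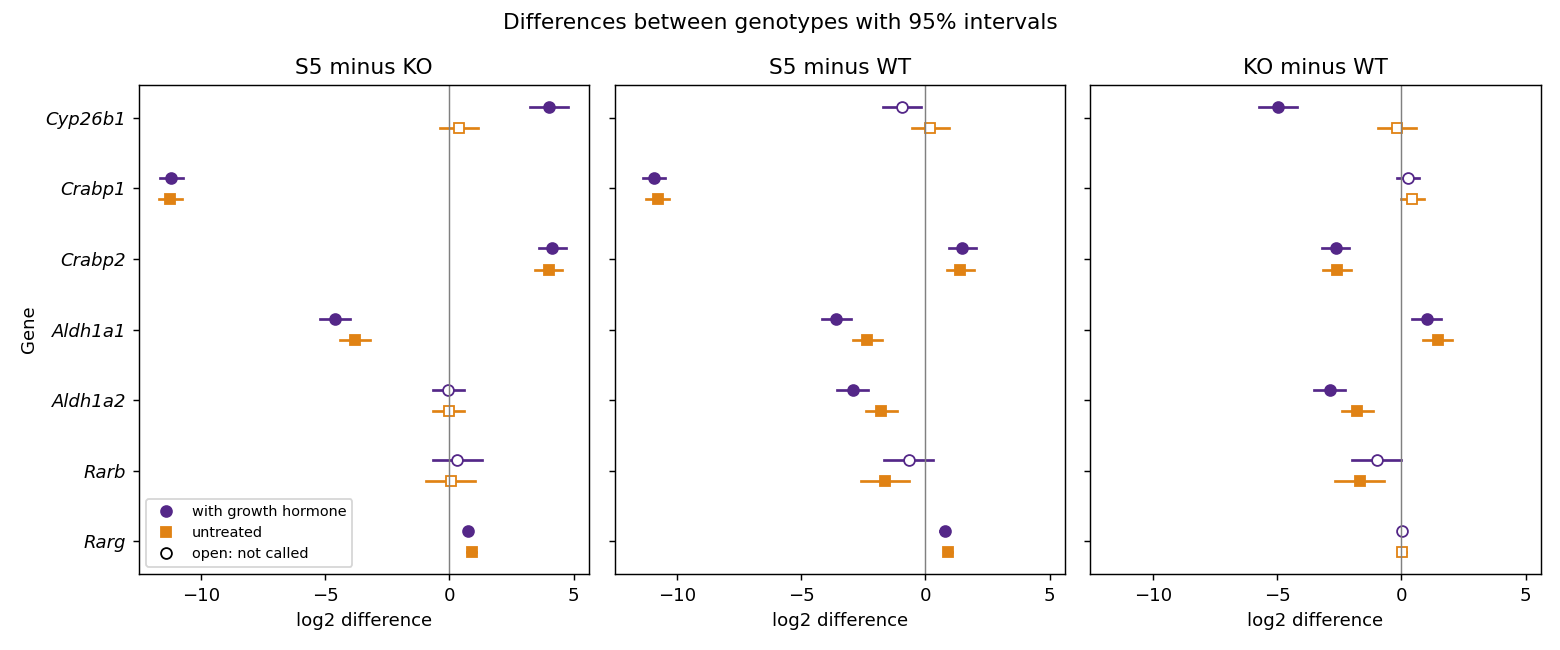
Log2 differences between genotypes (horizontal axis) for the 7 probe sets that rose above the low mode (vertical axis), with growth hormone (circles) and untreated (squares), 2 arrays a group. Lines are 95% intervals before adjustment and filled symbols have a limma adjusted p under 0.05; low values are not set to 4 here. Crabp1 lies between -11.22 and -10.77 in S5 minus KO and S5 minus WT, and Crabp2 lies right of 0 in both and left of 0 in KO minus WT.

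Of the enzymes that make retinoic acid, Aldh1a1 was highest in KO MEFs and lowest in S5 MEFs. Its probe set 1416468_at read 4.74 and 5.28 in S5 + GH and 6.29 and 6.45 in S5. It read 9.83 and 9.38 in KO + GH and 10.23 and 10.11 in KO, against 8.81 and 8.36 in WT + GH and 8.91 and 8.50 in WT. The arrays of the genotypes did not overlap, in the order KO, WT, S5.

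Each step in that order passed the test. Untreated S5 MEFs were 14.0-fold below KO MEFs (log2 difference -3.80, SE 0.25, limma adjusted p = 5.22e-05) and 5.05-fold below WT MEFs (-2.34, adjusted p = 0.000523), and untreated KO MEFs were 2.76-fold above WT MEFs (1.47, adjusted p = 0.00702). With growth hormone S5 MEFs were 24.2-fold below KO MEFs (adjusted p = 1.77e-05) and 11.9-fold below WT MEFs (adjusted p = 5.53e-05). KO MEFs with the hormone were 2.03-fold above WT MEFs (adjusted p = 0.0277), a call lost without replicate 1 of KO + GH (0.136) or replicate 2 of WT + GH (0.150).

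Growth hormone lowered Aldh1a1 2.56-fold in S5 MEFs (log2 difference -1.36, SE 0.25, adjusted p = 0.024), with both treated arrays below both untreated ones. The call was lost without replicate 1 of S5 + GH (adjusted p = 0.111) and without replicate 1 or 2 of S5 (0.0879 and 0.125). The difference was -0.56 in KO MEFs (95% interval -1.15 to 0.03, adjusted p = 0.677) and -0.12 in WT MEFs (-0.71 to 0.47, adjusted p = 0.827). Set against the response of KO MEFs, that of S5 MEFs differed by -0.79 (adjusted p = 0.629), and against WT MEFs by -1.24 (adjusted p = 0.181), neither of which passed, so a response particular to S5 MEFs was not shown.

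Aldh1a2, the enzyme that supplies most retinoic acid in the early embryo, was above the low mode in WT MEFs alone. On its probe set 1422789_at the S5 and KO arrays lay between 2.23 and 2.33, with or without the hormone. The WT arrays read 5.39 and 4.92 in WT + GH and 4.49 and 3.62 in WT. WT arrays and the rest did not overlap, though 1 untreated WT array was itself below 4.

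With the hormone, S5 MEFs were at least 2.22-fold below WT MEFs in Aldh1a2 (log2 difference -2.92, limma adjusted p = 0.000188), as were KO MEFs (-2.87, adjusted p = 0.000338). Untreated, S5 minus WT was -1.78 (adjusted p = 0.00242) and KO minus WT was -1.76 (adjusted p = 0.00394), calls that were lost in fits of the compared groups alone (0.0640 and 0.0794). With low values set to 4, both untreated differences were -0.06, a fold of at least 1.04, so their size cannot be read from these values. Growth hormone in WT MEFs gave a log2 difference of 1.10 that did not pass (95% interval 0.47 to 1.72, adjusted p = 0.0897).

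Mesothelium, the lining of body cavities, makes Aldh1a2 in the embryo, and 2 of 5 markers of it, Wt1 and Upk3b, were like Aldh1a2 high on the WT arrays alone. Over the 5 markers the array means were 2.46 to 2.68 for S5 and 3.09 to 3.25 for KO, against 4.86 to 5.05 for WT. Wt1 lay between 2.40 and 2.77 on the S5 and KO arrays, against 5.82 and 5.78 in WT + GH and 6.90 and 6.82 in WT. Upk3b lay between 2.28 and 2.37 on the S5 and KO arrays, against 6.52 to 7.42 on the WT arrays. Krt19 differed from that pattern, with 2.23 to 3.12 on the S5 arrays and 5.56 to 6.54 on the KO arrays, against 6.05 to 7.08 on the WT arrays. Msln and Lrrn4 were in the low mode on every array. With the hormone Wt1 fell by 1.07 in WT MEFs (limma adjusted p = 0.000984), where the Aldh1a2 difference was positive and did not pass. Nor were mesothelial markers alone in being higher on the WT arrays. The 14 macrophage and blood markers averaged 9.13 to 10.76 there, against 3.18 to 3.46 on the S5 arrays and 3.97 to 4.31 on the KO arrays. The part of either kind of cell in the Aldh1a2 values was not tested.

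Among the members, Crabp1 differed between genotypes by the largest log2 amounts. Crabp1, the cytoplasmic binding protein, read 2.14 and 2.54 in S5 + GH and 2.16 and 2.51 in S5 on probe set 1448326_a_at. KO + GH read 13.42 and 13.63 and KO 13.77 and 13.34, against 13.23 and 13.27 in WT + GH and 13.17 and 13.05 in WT. The transcript was thus in the low mode on each S5 array and far above it on each KO and WT array.

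Untreated S5 MEFs were at least 754-fold below KO MEFs in Crabp1 (log2 difference -11.22, SE 0.19, limma adjusted p = 6.23e-08) and at least 553-fold below WT MEFs (-10.77, adjusted p = 8.2e-08). With growth hormone the bounds were 738-fold and 609-fold (adjusted p = 6.67e-08 and 6.13e-08). KO minus WT was 0.45 untreated (95% interval -0.01 to 0.91, adjusted p = 0.203) and 0.28 with the hormone (-0.18 to 0.73, adjusted p = 0.513). The hormone gave differences of -0.03 in KO and 0.14 in WT MEFs (adjusted p = 0.991 and 0.726), and both S5 groups were in the low mode.

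The promoter of Crabp1 is shown because its transcript was in the low mode in S5 MEFs alone. The RefSeq window (GRCm38.p6, chr9:54764498-54764797, plus strand) covers 250 bases before to 50 after the start, and none of the motifs named for Cyp26b1 was found, so no base is in capitals. The windows of 8 of the 9 genes were searched, 16 in all, without Crabp2.
Crabp1: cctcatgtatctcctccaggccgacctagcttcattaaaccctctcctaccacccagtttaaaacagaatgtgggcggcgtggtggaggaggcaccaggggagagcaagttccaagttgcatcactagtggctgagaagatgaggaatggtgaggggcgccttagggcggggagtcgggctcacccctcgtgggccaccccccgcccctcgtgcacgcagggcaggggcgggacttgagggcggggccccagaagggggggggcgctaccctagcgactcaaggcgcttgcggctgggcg

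Crabp2, the carrier that delivers retinoic acid to its receptors, ran S5, WT, KO in falling order. Probe set 1451191_at read 13.07 and 13.10 in S5 + GH and 13.19 and 13.18 in S5. It read 8.62 and 9.29 in KO + GH and 9.46 and 8.94 in KO, against 11.57 and 11.61 in WT + GH and 11.87 and 11.69 in WT. The genotypes did not overlap, and treated and untreated arrays of KO did.

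Untreated S5 MEFs were 15.8-fold above KO MEFs in Crabp2 (log2 difference 3.99, SE 0.23, limma adjusted p = 2.69e-05) and 2.64-fold above WT MEFs (1.40, adjusted p = 0.00395), and KO MEFs were 6-fold below WT MEFs (-2.58, adjusted p = 0.00037). With growth hormone the folds were 17.5 for S5 over KO, 2.82 for S5 over WT and 6.21 for KO below WT (adjusted p = 2.02e-05, 0.0024 and 0.000276). All of these calls held in every alternative run. The hormone itself gave log2 differences of -0.10 in S5 (95% interval -0.65 to 0.44), -0.24 in KO (-0.79 to 0.30) and -0.19 in WT MEFs (-0.74 to 0.35), none of which passed (adjusted p = 0.93, 0.942 and 0.686).

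The carriers therefore differed in opposite directions between S5 and KO MEFs, and KO and WT MEFs differed in Crabp2 but not past the threshold in Crabp1. Of the 10 fibroblast markers, Thy1, Dcn, Pdgfra and Pdgfrb were lower on every S5 array than on any KO or WT array, as Crabp1 was and Crabp2 was not. The part of marker or RNA length differences in either carrier was not tested.

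Of the receptors, Rarg was higher in S5 MEFs and not called between KO and WT MEFs. Probe set 1419415_a_at read 10.41 and 10.35 in S5 + GH and 10.52 and 10.49 in S5. It read 9.54 and 9.74 in KO + GH and 9.61 and 9.61 in KO, against 9.67 and 9.54 in WT + GH and 9.58 and 9.59 in WT. The S5 arrays stood above all others, and the KO and WT arrays overlapped.

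Untreated S5 MEFs exceeded KO MEFs 1.86-fold in Rarg (log2 difference 0.89, SE 0.07, limma adjusted p = 0.000129) and WT MEFs 1.89-fold (0.92, adjusted p = 0.000109), and with growth hormone the folds were 1.67 and 1.71 (adjusted p = 0.0003 and 0.000194). KO minus WT was 0.02 untreated and 0.03 with the hormone, with 95% intervals from -0.14 to 0.19 and from -0.13 to 0.20. The other Rarg probe set, 1419416_a_at, lay between 2.24 and 2.50 on all arrays, in the low mode, so that only 1 of the 2 read the gene here.

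Rarb, the receptor that retinoic acid itself induces in many cells, was highest in untreated WT MEFs. Probe set 1454906_at read 5.89 and 6.98 in S5 + GH and 6.43 and 6.22 in S5. It read 5.95 and 6.28 in KO + GH and 5.88 and 6.69 in KO, against 7.06 and 7.14 in WT + GH and 7.60 and 8.29 in WT. The S5 and KO arrays overlapped, the WT arrays lay above them all, and the duplicates of S5 + GH lay far apart.

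Untreated S5 MEFs were 3.07-fold below WT MEFs in Rarb (log2 difference -1.62, SE 0.42, limma adjusted p = 0.0278), and KO MEFs were 3.17-fold below (-1.66, adjusted p = 0.0333). With growth hormone S5 minus WT was -0.67 (adjusted p = 0.351) and KO minus WT was -0.99 (adjusted p = 0.178), and neither passed. Both untreated calls were lost without replicate 2 of WT (0.158 for S5 minus WT and 0.181 for KO minus WT), and the KO call was lost in 10 of 22 alternatives. S5 minus KO was 0.04 untreated (95% interval -0.94 to 1.03), and the hormone gave 0.11 in S5, -0.17 in KO and -0.85 in WT MEFs (in WT -1.83 to 0.13, adjusted p = 0.401).

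The start of Rarb is shown because it carries a retinoic acid response element. In the RefSeq window (GRCm38.p6, chr14:16575427-16575726, minus strand, 250 bases before to 50 after the start) the element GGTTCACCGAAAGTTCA, in capitals, occupies bases 198 to 214, and its first base lies 53 bases before the start. It is a DR5 as defined for Cyp26b1, found in 32 of the 32851 windows, and a match to TTCNNNGAA overlaps it within the same letters. Among the other windows searched, 1 of Rara held TTCNNNGAA, and DR5 or DR2 was in none. A match is a description of the letters and shows no binding in these cells.
Rarb: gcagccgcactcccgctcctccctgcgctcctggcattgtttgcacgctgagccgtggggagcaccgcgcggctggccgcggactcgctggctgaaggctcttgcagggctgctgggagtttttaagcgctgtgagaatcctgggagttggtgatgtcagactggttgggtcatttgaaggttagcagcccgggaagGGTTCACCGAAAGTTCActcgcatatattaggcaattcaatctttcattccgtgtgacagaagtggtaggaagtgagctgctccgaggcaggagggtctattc

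Rara and Stra6 were in the low mode on every array. Probe set 1450180_a_at of Rara, the widely expressed receptor, lay between 1.61 and 1.70, and probe set 1422723_at of Stra6, the retinol uptake receptor, between 1.94 and 2.02. No difference was called for either, and with 1 probe set each these values do not show that the transcripts are absent.

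Beyond the members, 39 of 45 further pathway genes were matched, with 78 probe sets, and 46 of these rose above the low mode. With growth hormone, 6 (2 up, 4 down) were called in S5 MEFs, where 6.24% of all probe sets were. In KO MEFs 0 were called in limma, against 0.251% of all. There 8 of the 78 had an unadjusted limma p under 0.05, but that share over all probe sets was not computed, so the count cannot be judged. In WT MEFs 8 (4 up, 4 down) were called, against 3.06% of all. Untreated, 31 differed between S5 and KO MEFs (23 higher in S5), against 18.8% of all, 30 between S5 and WT MEFs (14 higher in S5), against 24.0%, and 23 between KO and WT MEFs (8 higher in KO), against 17.2%. Of the 31 and of the 30, 1 call each was on a probe set in the low mode in every group. The medians over the 78 probe sets lay within 0.03 of 0 in these untreated comparisons, as did those over all probe sets.

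**Figure D4:**
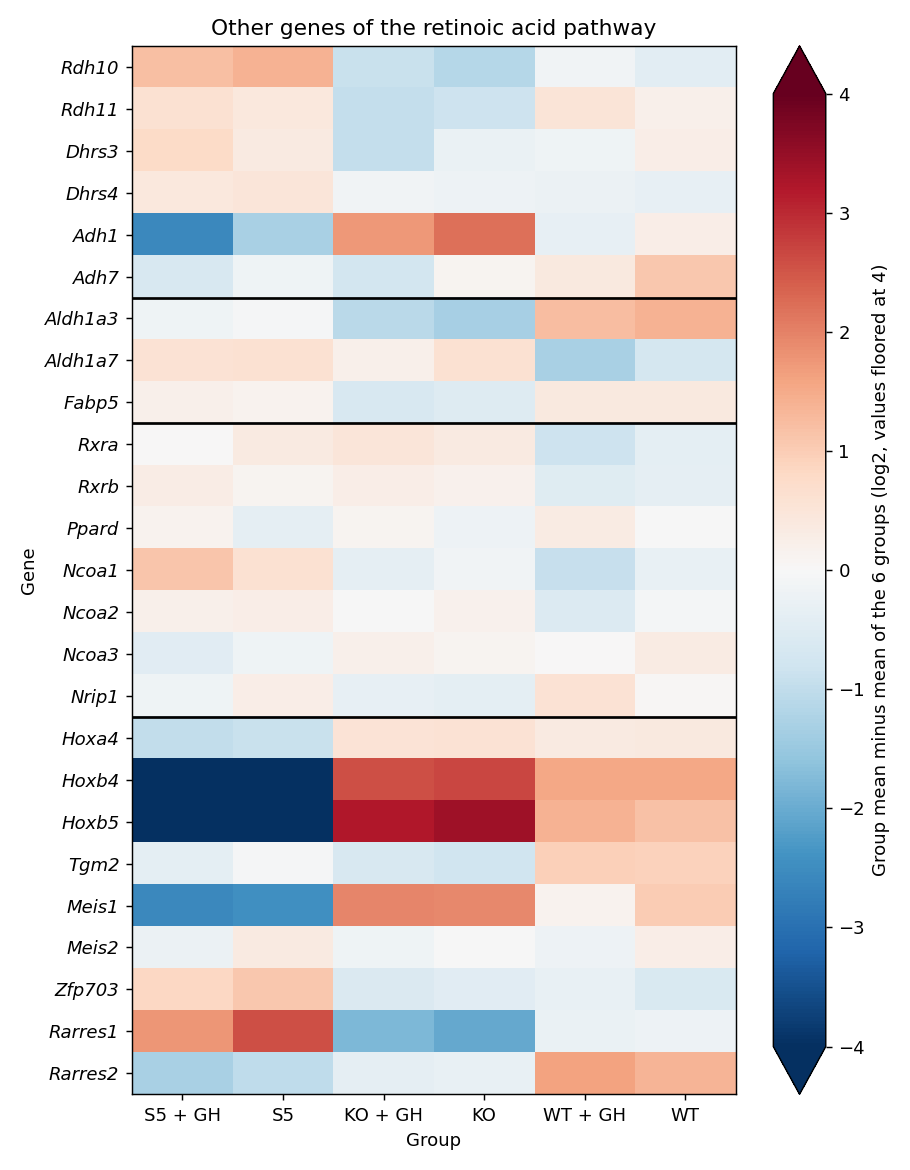
Group mean minus the mean of the 6 groups (colour, log2, values below 4 set to 4) for the 25 further pathway genes above the low mode (vertical axis) in the 6 groups (horizontal axis). Black lines part, from the top, retinol oxidation, other retinoic acid synthesis and carriage, RXR partners and coregulators, and genes induced by retinoic acid in other cells. Hoxb4 and Hoxb5 are darkest blue in the S5 groups, at -4.16 and -4.57.

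Among 19 probe sets for retinol uptake, storage and oxidation, 8 were higher and 1 lower in untreated S5 than KO MEFs (10.5% and 8.37% of all probe sets), and 1 was higher and 5 lower in KO than WT MEFs (9.38% and 7.85% of all). Of the 19, 10 rose above the low mode. The 8 higher in S5 than KO were of 6 genes, and the 5 lower in KO than WT were of 3 genes. Of the S5 and KO calls, 1 was on a probe set in the low mode in every group. Rdh10, the retinol dehydrogenase that governs retinoic acid supply in the mouse embryo, averaged 11.47 in S5 and 8.94 in KO MEFs, against 9.67 in WT MEFs. S5 was 5.8-fold above KO and 3.48-fold above WT, and KO was 1.67-fold below WT (limma adjusted p = 4.16e-07, 2.44e-06 and 0.00033), the order seen for Crabp2. Rdh11, a retinaldehyde reductase, had a log2 difference of -1.44 for KO minus WT (adjusted p = 0.000879).

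Adh1, an alcohol dehydrogenase that oxidises retinol, ran the other way and in the order of Aldh1a1. It averaged 8.47 in S5 and 11.97 in KO MEFs, against 10.03 in WT MEFs, so that S5 was 11.3-fold below KO (limma adjusted p = 0.000217) and KO 3.83-fold above WT (adjusted p = 0.00491). Adh7, the class of alcohol dehydrogenase most active on retinol, was 2.88-fold lower in KO than WT MEFs on probe set 1450110_at (adjusted p = 0.00109). Dhrs3, which turns retinaldehyde back to retinol, was 3.3-fold higher in S5 + GH than KO + GH (adjusted p = 0.000248). Both Adh1 and Rdh10 calls held in every alternative run.

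In the small group of other synthesis and carriage genes, 3 of 9 probe sets were higher and 0 lower in untreated S5 than KO MEFs (10.5% and 8.37% of all probe sets), and 1 was higher and 3 lower in KO than WT MEFs (9.38% and 7.85% of all). The 3 higher in S5 than KO were of 2 genes, and the 3 lower in KO than WT were also of 2 genes. Aldh1a3, the third enzyme of the Aldh1a family, averaged 6.08 in S5 and 4.80 in KO MEFs, against 7.50 in WT MEFs, and KO was 6.49-fold below WT (limma adjusted p = 0.000622). Aldh1a7, a close paralog of Aldh1a1, averaged 9.09 in S5 and 9.07 in KO MEFs, against 7.76 in WT MEFs, and both exceeded WT (adjusted p = 0.00208 and 0.00334). Fabp5, which carries retinoic acid to PPARD, averaged 12.48 in S5 and 10.82 in KO MEFs, against 12.73 in WT MEFs on probe set 1416022_at, and KO was 3.78-fold below WT (adjusted p = 9.88e-06). The gap was smaller on the other Fabp5 probe set, 1416021_a_at. Centred on the mean of the 6 groups, its untreated log2 means were 0.15 in S5 and -0.52 in KO, against 0.40 in WT MEFs. Cyp26a1, the relative of Cyp26b1, was in the low mode on all arrays. Whether the Aldh1a1 and Aldh1a7 probe sets read each other's transcripts was not analysed here.

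Among 22 probe sets for RXR partners, coregulators and PPARD, growth hormone raised 2 and lowered 2 in S5 MEFs (3.42% and 2.83% of all probe sets) and raised 4 and lowered 1 in WT MEFs (1.79% and 1.27% of all). The 4 raised in WT MEFs were all of Nrip1, a corepressor of nuclear receptors, with log2 differences of 0.92, 0.51, 0.63 and 0.81. In S5 MEFs the Nrip1 probe sets disagreed, with a log2 difference of -0.43 on 1434384_at (limma adjusted p = 0.0441) and of 1.02 on 1454295_at (adjusted p = 0.00556). Ncoa1, a coactivator, responded in opposite directions, by 0.50 in S5 MEFs and -0.61 in WT MEFs, and this difference of 1.11 passed (adjusted p = 0.00902) and held in every alternative run, whereas the single responses were lost in 7 (S5) and 6 (WT) of them. Rxra and Rxrb, the obligate partners, were 1.68-fold and 1.37-fold higher in S5 than WT MEFs (adjusted p = 0.00406 and 0.0163) and 1.67-fold and 1.43-fold higher in KO than WT MEFs (adjusted p = 0.00647 and 0.0132).

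Genes that retinoic acid induces in other cells did not move one way. Of their 28 probe sets, 9 were higher and 6 lower in untreated S5 than KO MEFs, where 10.5% and 8.37% of all probe sets were. In S5 against WT MEFs 3 were higher and 9 lower (13.9% and 10.2% of all), and in KO against WT MEFs 4 higher and 6 lower (9.38% and 7.85% of all). Several probe sets read the same gene. Of the 12 genes matched, 4 had higher and 4 had lower probe sets in S5 than KO MEFs. For S5 against WT MEFs these gene counts were 3 and 6, and for KO against WT MEFs 4 and 3. Hoxb5 and Hoxb4, which pattern the body axis, averaged 1.93 and 2.31 in S5 and 11.96 and 10.83 in KO MEFs, against 9.73 and 9.69 in WT MEFs, so that S5 was at least 249.8-fold and 114.0-fold below KO (limma adjusted p = 4.55e-07 and 7.54e-07). Meis1, a partner of Hox proteins, was 20.4-fold lower in S5 than KO MEFs (adjusted p = 7.41e-07), and Zfp703, a transcriptional repressor, was 2.9-fold higher (adjusted p = 6.86e-05). Tgm2, a transglutaminase, was lower in KO than WT MEFs on 4 probe sets, by 3.51-fold on 1455900_x_at (adjusted p = 6.62e-05). With the hormone Meis2 fell 2.22-fold in S5 MEFs on 1417129_a_at (adjusted p = 0.00196).

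The genes whose pattern over the 12 arrays lay closest to each member were ranked by the root mean square difference of values set to at least 4 and centred, 1 probe set a gene. For Cyp26b1 these were Irf1 (0.432), an interferon regulatory factor, Micall2 (0.700) and Zc3h12a (0.704), an RNase that degrades cytokine transcripts. Irf1 averaged 9.46 in S5 + GH and 7.33 in S5, 7.79 in KO + GH and 6.99 in KO, and 10.60 in WT + GH and 7.51 in WT. Micall2 averaged 8.46 in KO + GH and 6.85 in KO, and Zc3h12a 4.30 and 2.76. These neighbours thus read higher with the hormone in KO MEFs too, where Cyp26b1 was in the low mode with and without it. For Crabp1 they were Efemp1 (0.349), Thy1 (0.425) and Hoxc8 (0.425), which averaged 3.19, 4.31 and 2.69 in S5 and 14.15, 14.24 and 13.90 in KO, against 13.42, 14.21 and 12.64 in WT.

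For Crabp2 the closest genes were Eva1a (0.239), Lims2 (0.316) and Nid2 (0.333), a basement membrane protein. Nid2 averaged 10.84 in S5 and 7.56 in KO, against 9.75 in WT. For Aldh1a1 they were Pde8b (0.266), a phosphodiesterase, Nap1l2 (0.366) and St8sia2 (0.415), a sialyltransferase. Pde8b averaged 7.30 in S5 + GH and 8.63 in S5, 12.21 in KO + GH and 12.17 in KO, and 10.97 in WT + GH and 11.16 in WT. These are descriptions over 12 arrays with a strong genotype difference, and the members with group means within 2 of each other were not ranked.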

How the data were processed

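RNA of 12 MEF cultures was hybridised to Affymetrix mouse arrays. The authors deposited 1 value per probe set and array, read here as log2 expression values because of their range; no label states the scale in words. Per the submitters' processing notes, GCOS and RMA (robust multi-array average) were used, with settings not given in the sources used here. Values pile up below 4, and this low mode bound was chosen after the data were seen.

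Probe sets were named through the platform table and RefSeq symbols. The 64 control probe sets were left out, which left 45037, of which 932 are listed with several genes and 9160 with none. Differences were tested with limma 3.58.1 in R 4.3.3, with a mean per group and no covariate (6 residual and 1.1 prior degrees of freedom). P-values are two-sided and Benjamini-Hochberg adjusted over all probe sets, and each SD is over arrays. Every probe set was tested on its own, since all probe sets of the member genes were wanted; 1 probe set a gene was an alternative, beside fits of the compared groups alone, a replicate block, a trended prior, array weights, 2 other normalizations, a filter on low means, probe set means and leaving out each array. The fit was tested on simulated data with known changes.

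The member genes, pathway lists and markers were chosen with earlier results of these data known, so they are no independent support. All member probe sets are given, and of each list up to 4 genes with the smallest adjusted p per comparison, besides Rxra, Rxrb, Rdh10, Dhrs3, Cyp26a1 and Fabp5. Replicate numbers of the titles did not pair the arrays. Promoter windows are RefSeq's (GRCm38.p6). Some genes of the pathway lists are not reported here.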

Additional observations from a re-analysis of the deposited data

Results flagged for a closer look

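The response of Cyp26b1 to growth hormone differed between genotypes by limma's test of the difference itself. In S5 MEFs it exceeded the KO response by 3.64 on the log2 scale (adjusted p = 0.0175), and in WT MEFs by 4.78 (adjusted p = 0.00696). Both differences use the same KO arrays, on which all Cyp26b1 values lie in the low mode.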

How the results depend on the processing

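Of 33 single calls of member probe sets, 24 held in every alternative that tested them, and none changed direction. The filter on low means removed the Aldh1a2 probe set (mean 3.05 over all arrays), so its calls could not be lost there. Over the 22 settings, 669 values kept their direction and call and 30 lost the call. The counts of called member probe sets stayed within 1.5 times in most settings. In fits of the compared groups alone the hormone count was 1 in S5 and 0 in WT MEFs, the WT response minus the KO response gave 0, and untreated KO minus WT gave 2. Without the S5 groups, a setting chosen after seeing the data, the WT response minus the KO response gave 0. Fewer arrays and residual degrees of freedom enter these fits.

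Leaving out each array in turn gave 1 to 2 called probe sets for the hormone in S5, 0 to 0 in KO and 1 to 2 in WT MEFs. It gave 0 to 1 for the S5 response minus the KO response, 0 to 1 for the S5 response minus the WT response and 1 to 2 for the WT response minus the KO response. Untreated, it gave 4 to 4 for S5 minus KO, 5 to 6 for S5 minus WT and 3 to 4 for KO minus WT, and with the hormone 5 to 6, 5 to 6 and 3 to 4. The lone array of a group was then assumed to vary like the others. The Rarb call for untreated KO minus WT was the least steady, with an adjusted p of 0.128 in the fit of the compared groups and 0.182 without replicate 1 of KO.

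Replicate numbers did not pair the arrays: over 20566 probe sets, replicate differences of 2 groups correlated between -0.38 and 0.18, over 0.1 in 1 of 15 pairs. With the replicate block no member call was lost and the counts were 2 for the hormone in S5, 0 in KO and 1 in WT MEFs. Calls of list genes were followed only for the reported genes, chosen mostly by smallest adjusted p, with 1 probe set a gene and comparison. The steadiness of the other list calls is thus not covered. Of these 103 selected calls, 72 held throughout and 31 were lost in at least 1 setting. One changed direction: Nrip1 with the hormone in S5 MEFs was -0.037 (adjusted p = 0.829) with the mean of its probe sets, as these disagree.

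With a low mode bound of 3 or 5 the number of member probe sets above it stayed within 1.5 times of 7. Signals in the low mode limit Rara, Stra6 and the second Rarg probe set, for which no change can be read.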

Other observations

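Beyond the retinoic acid genes, a few markers of other cell types were highest on the S5 arrays, named here after their values were seen, and most of their lists did not follow. Sox2, a transcription factor of stem and neural precursor cells, lay between 8.69 and 9.60 on the S5 arrays and at 2.29 to 2.35 on the KO arrays, against 3.25 to 4.26 on the WT arrays. Of the other neural markers, Map2 was also highest on the S5 arrays, at 12.42 to 12.76, against 11.74 or less elsewhere. Nes lay between 6.43 and 7.06 on the S5 arrays and 7.38 to 8.13 on the KO arrays, against 10.53 to 10.94 on the WT arrays. Tubb3 lay between 3.86 and 6.78 on the S5 arrays and 7.01 to 7.88 on the KO arrays, against 8.52 to 8.97 on the WT arrays, and Elavl3 was in the low mode on every array. Tek, an endothelial receptor, lay between 9.13 and 9.42 on the S5 arrays and 2.74 to 3.76 on the KO arrays, against 4.77 to 7.16 on the WT arrays, while the endothelial markers Pecam1, Cdh5, Kdr and Tie1 were in the low mode on every array.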
